A study of Canis lupus familiaris with 10 samples.

Results

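The genes described here encode the proteins of the mitochondrial ribosome, the MRPL genes of its large subunit and the MRPS genes of its small subunit. A gene was taken as a member when a probe set of the array carried a single gene symbol that began with MRPL or MRPS followed by a number, and a symbol with several probe sets was represented by the brightest on average (10 arrays). This gave 73 genes, 46 with a large subunit name and 27 with a small subunit name, of 15947 symbols on 32391 probe sets. The rule itself used gene names and mean level, not the response to treatment, but the members were chosen with earlier results of these data known. MRPL18, MRPL42, MRPL57, MRPS6 and MRPS17 were not analysed here. The platform names were kept as they stand: 71 members were found in RefSeq by gene ID, with 0 changed symbols, and MRPL9 and MRPS16 by symbol.

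Expression was measured on Affymetrix canine gene arrays in cells of the canine B-cell lymphoma lines CLBL-1 and 17-71, left as controls or given 100 nM of PR220, which the study calls C220. The compound is a selective inhibitor of PRMT5, an arginine methyltransferase that forms symmetric dimethylarginine in histones and in proteins of RNA splicing. CLBL-1 was collected on day 2 and gave 3 control and 2 treated arrays. 17-71 was collected on day 4 and gave 2 control and 3 treated arrays, so differences between the lines cannot be told apart from those of the day. The labels do not say whether replicates were separate cultures, although the study calls its replicates biological, so p-values measure only the spread between these samples. Each group is a single cell line grown in culture and stands for no other tumour. Because these are bulk samples scaled to a common distribution, fewer cells of a type and less RNA per cell cannot be told apart.

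The B-cell label was checked against marker genes. In CLBL-1 control cells all 7 measured B-cell markers lay above the array median, with MS4A1 (CD20) at a mean of 12.03 on the log2 scale, CD79A at 8.97 and EBF1 at 8.60. In 17-71 control cells the same genes lay at 2.19, 3.72 and 3.55, while CD79B was at 4.07, BLNK at 4.05, PAX5 at 5.04 and CD22 at 7.37, so that 4 of the 7 lay above the array median. The mean over the 8 myeloid markers was 5.85 to 5.90 on the 17-71 control arrays and 4.09 to 4.19 on those of CLBL-1, with CD68 at 9.65 against 4.13 and S100A9 at 9.53 against 3.28. Of these 8, 4 lay above the array median in 17-71 control cells and 2 in CLBL-1, and CSF1R, CD14, ITGAM and MPO lay below it in both lines. LYZ was high in both lines (10.8 and 11.1). Of 9 measured T-cell markers, 3 lay above the array median in CLBL-1 control cells and 2 in those of 17-71. CD3G was at 8.96 and CD3D at 6.83 in CLBL-1, and CD2 was at 8.18 in 17-71. CD3E, CD4, CD8A, CD8B, LCK and ZAP70 lay below the array median in both lines. All 7 B-cell markers were thus lower in the line labelled 17-71 than in CLBL-1, with MS4A1, CD79A and EBF1 near or below the array median, and every comparison between the lines below is given under that limit. The part of these marker differences in the results was not tested.

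The mitochondrial ribosome translates the few messenger RNAs of the mitochondrial genome, which encode core subunits of the respiratory chain and of ATP synthase. All of its proteins are encoded in the nucleus, made in the cytosol and imported, whereas its ribosomal RNAs come from mitochondrial DNA. Compared with bacterial ribosomes it has less RNA and more protein, and many of its proteins have no bacterial counterpart.

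In CLBL-1 cells, most mitochondrial ribosomal protein genes lay somewhat higher in treated than in control cells, and in 17-71 cells the changes were spread around 0. In CLBL-1 the difference was positive for 51 of the 73 members, with a median of 0.13 on the log2 scale against 0.0057 over all 15947 symbols. In 17-71 it was positive for 38 members, with a median of 0.010 against -0.00054 over all symbols. None of the 73 passed an adjusted p below 0.05 in CLBL-1 (0.201% of all symbols did, in either direction), and none did in 17-71 (0% of all symbols). The smallest adjusted p among the members was 0.114 in CLBL-1 and 0.520 in 17-71 (limma).

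Without adjustment, at the p of 0.05 used in the study, 21 members were higher and 5 lower in treated CLBL-1 cells (limma). Without either treated array, or with replicate number as a block, 10 were higher, and without CLBL-1 control replicate 3, 13. Over all symbols 8.31% were higher and 8.67% lower at that threshold, and among symbols with a mean level of at least 4, which 72 members reach, 11.9% and 12.6%. In 17-71, 2 members were higher and 2 lower, beside 3.39% and 5.24% of all symbols. The treated arrays of CLBL-1 all lay above the control arrays for 41 members and all below for 11, beside 20% and 18.5% of all symbols. In 17-71 they lay above for 8 members and below for 15, beside 14.1% and 16.6%. A change larger than 0.4 in either direction was seen for 9 members in CLBL-1 and for 1 in 17-71. The share of all symbols with a change of that size was not counted. Over symbols with a mean of at least 4, the quartiles of the change were -0.141 and 0.150 in CLBL-1 and -0.134 and 0.079 in 17-71.

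The count of adjusted calls in CLBL-1 depended on the model. With probe sets of a mean below 4 left out of the fit, 8 members were higher and 2 lower at an adjusted p below 0.05 in CLBL-1, beside 4.14% and 6.18% of symbols, and none passed in 17-71. The 8 were MRPS18B, MRPS28, MRPS10, MRPL46, MRPS7, MRPL58, MRPL50 and MRPL13, and the 2 lower were MRPS18C and MRPL4. With all probe sets kept, 13 members passed with trended and robust variances and 6 with all 10 arrays in the fit. In both of these fits MRPL4 and MRPS18C were lower and the others higher. The share of all symbols called in these fits was not counted, so the counts cannot be read as particular to the members.

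**Figure D1:**
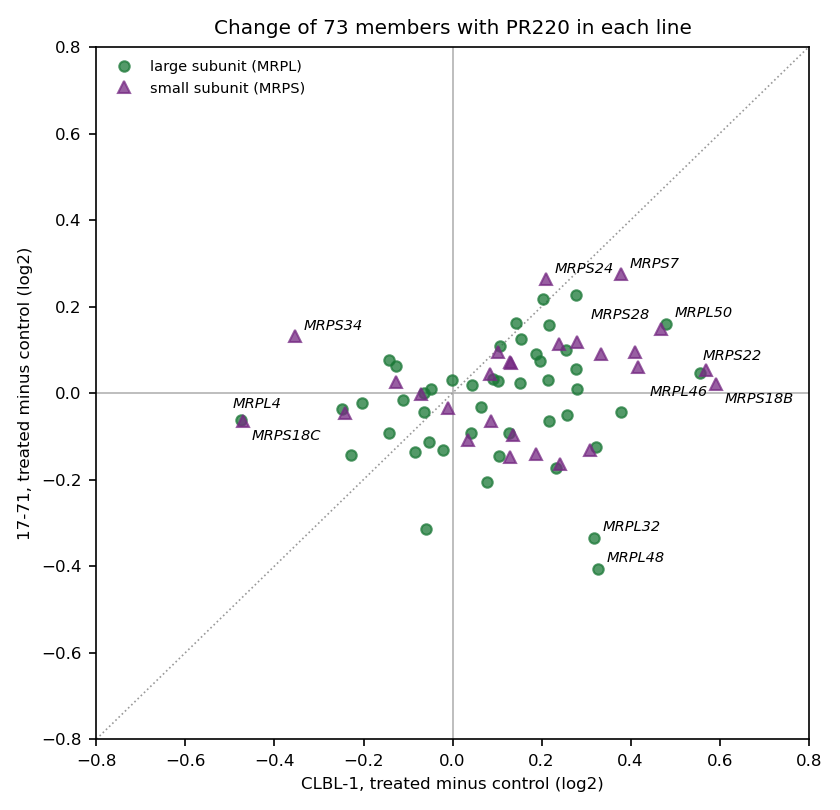
Difference between treated and control cells (log2) of each of the 73 members in CLBL-1 (horizontal axis) and in 17-71 (vertical axis), with large subunit genes as green circles, small subunit genes as purple triangles and equal change as a dotted line. The points reach from -0.48 to 0.59 along the CLBL-1 axis and from -0.41 to 0.27 along the 17-71 axis, and 51 of them lie to the right of 0.

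MRPS7, which encodes the counterpart of bacterial protein S7 in the head of the small subunit, was the member that reached an unadjusted p below 0.05 in the same direction in both lines. Its log2 level was 8.15, 8.13 and 8.24 on the CLBL-1 control arrays and 8.55 and 8.56 on the treated arrays. In 17-71 it was 7.61 and 7.64 in control cells and 7.95, 7.90 and 7.85 in treated cells. In neither line did treated and control arrays overlap. The mean of the treated minus control differences of both lines was 0.33 (SE 0.0534, adjusted p = 0.0267, limma), a fold of 1.25. MRPS7 was the 1 member of 73 that passed the adjusted threshold in this common effect, with all probe sets in the fit. Over all 15947 symbols, 80 were called higher and 325 lower, 2.54% in either direction. The differences within each line, 0.38 in CLBL-1 and 0.27 in 17-71, had adjusted p-values of 0.174 and 0.520. Leaving out any 1 array kept the common difference between 0.31 and 0.34, but it passed the threshold only without 17-71 treated replicate 3 (adjusted p = 0.0497), and without each of the other 9 arrays the adjusted p was 0.0593 to 0.102. With replicate number as a block it was 0.339. In the RefSeq gene order of the dog (UU_Cfam_GSD_1.0), MRPS7 overlaps GGA3, whose common difference was -0.24 (SE 0.0633, adjusted p = 0.118), and MIF4GD, which differed by 0.35 in CLBL-1 (adjusted p = 0.433) and by -0.55 in 17-71 (adjusted p = 0.467). Whether the probes of overlapping genes detect a shared transcript was not tested. These neighbours and those below were looked up after the values of the members had been seen.

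At an unadjusted p below 0.05 the common effect was higher for 19 members and lower for 5, beside 8.33% and 10.1% of all symbols. With dim probe sets left out of the fit, 9 members were higher and 2 lower at an adjusted p below 0.05, beside 4.89% and 8.81% of symbols. MRPL12 was among them, with 7.73, 7.76 and 7.76 in CLBL-1 control cells, 8.02 and 8.03 in treated cells, 7.51 and 7.36 in 17-71 control cells and 7.62, 7.64 and 7.73 in treated cells. Its treated arrays lay above the controls in both lines, and the common difference of 0.25 (SE 0.0563) had an adjusted p of 0.0743 with all probe sets in the fit. MRPL12 forms the stalk that recruits translation factors and is also known to bind the mitochondrial RNA polymerase.

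The genes of the MRPS18 family had differences of opposite sign in CLBL-1. MRPS18A, MRPS18B and MRPS18C encode related proteins that occupy different places: MRPS18B and MRPS18C lie in the small subunit, while MRPS18A lies in the large subunit despite its name. MRPS18B read 7.28, 7.30 and 7.45 in CLBL-1 control cells and 7.98 and 7.89 in treated cells. MRPS18C went the other way, with 7.07, 7.13 and 7.08 in control cells and 6.61 and 6.63 in treated cells. The arrays of treated and control cells did not overlap for either gene. The difference was 0.59 (SE 0.0992) for MRPS18B, a 1.51-fold higher level, and -0.47 (SE 0.0815) for MRPS18C, with adjusted p-values of 0.114 and 0.117. MRPS18A, at 7.41, 7.52 and 7.41 against 7.68 and 7.49, overlapped (0.14, SE 0.102).

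In 17-71 the family showed no separation between treated and control arrays. MRPS18B was at 7.72 and 7.67 in control cells and at 7.63, 7.71 and 7.80 in treated cells. MRPS18C was at 5.66 and 5.59 in control cells and at 5.64, 5.50 and 5.53 in treated cells. The test of the difference in response, CLBL-1 minus 17-71, gave 0.57 (SE 0.128, adjusted p = 0.182) for MRPS18B and -0.41 (SE 0.109, adjusted p = 0.244) for MRPS18C, so neither response is shown to differ between the lines at the adjusted threshold. In the same gene order MRPS18C overlaps ABRAXAS1, a gene of the BRCA1-A DNA repair complex, whose own probe set differed by -0.60 in CLBL-1 (SE 0.0884, adjusted p = 0.0962) and by -0.46 in 17-71 (SE 0.200, adjusted p = 0.578).

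Further members of the small subunit with the smallest p-values in CLBL-1 were higher in treated cells. MRPS28, a small subunit protein, was at 7.06, 7.05 and 7.09 in control cells and at 7.47 and 7.60 in treated cells. MRPS10, in the head of the subunit, was at 7.95, 7.89 and 7.81 in control cells and at 8.32 and 8.27 in treated cells. Their differences were 0.47 (SE 0.0878, adjusted p = 0.133) and 0.41 (SE 0.0889, adjusted p = 0.163), and no treated array overlapped a control array. In 17-71 the corresponding differences were 0.15 and 0.09, with overlapping arrays. Lower in treated CLBL-1 cells were MRPS34, a dim probe set at 4.50, 4.23 and 4.14 against 3.96 and 3.91, and MRPS23, at 8.02, 8.16 and 8.12 against 7.82 and 7.89, with differences of -0.35 and -0.24 (adjusted p = 0.331 and 0.338).

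MRPS22 showed how far a result can rest on the probe set chosen. Mutations of this small subunit gene cause mitochondrial disease in humans. The brighter of its 2 probe sets gave 7.06, 7.46 and 7.10 in CLBL-1 control cells and 7.77 and 7.79 in treated cells, a difference of 0.57 (SE 0.145, adjusted p = 0.200), and a difference of 0.05 in 17-71. The other probe set gave 0.46 in each line (unadjusted p = 0.00692 in CLBL-1 and 0.0253 in 17-71, limma). The probe sets thus gave like values in CLBL-1 and unlike values in 17-71.

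In the large subunit, MRPL46 and MRPL50 were the members with the smallest p-values among those higher in treated CLBL-1 cells. MRPL46, a protein of the central protuberance with no bacterial homolog, was at 6.29, 6.44 and 6.16 in control cells and at 6.81 and 6.89 in treated cells. MRPL50 was at 5.81, 5.92 and 5.91 in control cells and at 6.23 and 6.49 in treated cells. Both were higher on every treated array, by 0.56 (SE 0.113, adjusted p = 0.150) and 0.48 (SE 0.113, adjusted p = 0.182). MRPL58, also named ICT1, is a peptidyl-tRNA hydrolase built into the subunit that can release stalled chains. It was at 7.28, 7.24 and 7.23 in control cells and at 7.55 and 7.60 in treated cells, a difference of 0.32 (SE 0.0824, adjusted p = 0.200), while in 17-71 it was at 6.62 and 6.72 against 6.56, 6.41 and 6.67, with overlapping arrays.

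MRPL4 and MRPL43 were the large subunit members lower in treated CLBL-1 cells at an unadjusted p below 0.05. MRPL4, which lines the tunnel of the nascent chain in bacterial ribosomes, was at 8.46, 8.42 and 8.53 in control cells and at 7.93 and 8.06 in treated cells. The treated arrays lay below the controls, by 0.48 on the log2 scale (difference -0.48, SE 0.0909, adjusted p = 0.138). In 17-71 it was at 7.64 and 7.69 in control cells and at 7.58, 7.68 and 7.55 in treated cells, which overlap. MRPL43 differed by -0.25 in CLBL-1 (SE 0.0797, adjusted p = 0.279) and by -0.04 in 17-71. MRPL10, of the stalk base, was lower on both treated CLBL-1 arrays (8.31, 8.29 and 8.40 against 8.12 and 8.14), with a difference of -0.20 that did not reach the unadjusted threshold.

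**Figure D2:**
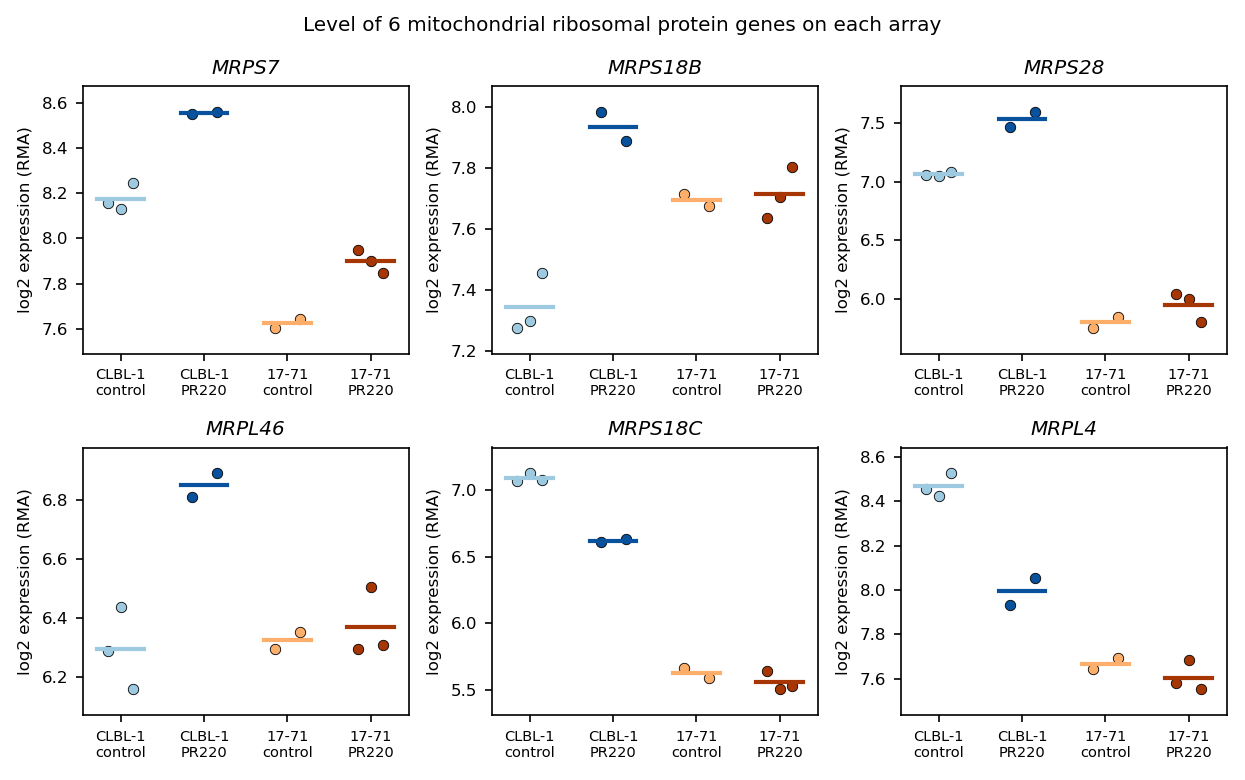
Log2 expression (RMA, vertical axes, each with its own range) of 6 members on each of the 10 arrays, by line and treatment. Points are arrays and bars are group means; in CLBL-1 the treated arrays lie above the controls for MRPS7, MRPS18B, MRPS28 and MRPL46 and below them for MRPS18C and MRPL4, and in 17-71 they separate for MRPS7 alone among these 6.

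The small subunit had a somewhat higher median than the large subunit in both lines, but the size of this gap moved with the arrays and with the membership. In CLBL-1 the difference was positive for 30 of 46 large subunit members, with a median of 0.11, and for 21 of 27 small subunit members, with a median of 0.14. At an unadjusted p below 0.05, 10 large subunit members were higher and 2 lower, and 11 small subunit members were higher and 3 lower. In 17-71 the medians were -0.0088 and 0.043, with 22 of 46 and 16 of 27 members positive. The median of the small subunit exceeded that of the large subunit by 0.029 in CLBL-1 and 0.052 in 17-71, beside a residual SD of this gap between arrays of 0.021 and 0.044. In CLBL-1 it was 0.039 to 0.056 with 1 array left out and 0.082 with MRPS18A and MRPS30 counted in the large subunit, where their proteins lie. In 17-71 it was -0.0022 to 0.085 with 1 array left out, the lowest value being that without control replicate 2. The changes varied among the members of 1 subunit with an SD of 0.204 (large) and 0.258 (small) in CLBL-1 and 0.135 and 0.117 in 17-71.

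Seen array by array, the shift in CLBL-1 was alike on both treated arrays. Relative to the mean of the CLBL-1 control arrays, the large subunit median was 0.116 and 0.139 on the treated arrays and the small subunit median 0.172 and 0.178, while on the control arrays themselves both stayed between -0.0127 and 0.0072. In 17-71 the large subunit median was -0.0073, -0.027 and -0.019 on the treated arrays and the small subunit median 0.013, -0.0033 and 0.055, beside control arrays between -0.021 and 0.021. Because the deviations were taken from the mean of the same control arrays, those arrays centre on 0 by construction. Their range is thus no independent measure of the spread. Both treated arrays of CLBL-1 lay above the controls in both subunits, and in 17-71 treated and control arrays overlapped in both subunits. The median of all symbols stayed between -0.0050 and 0.0072 on every array.

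**Figure D3:**
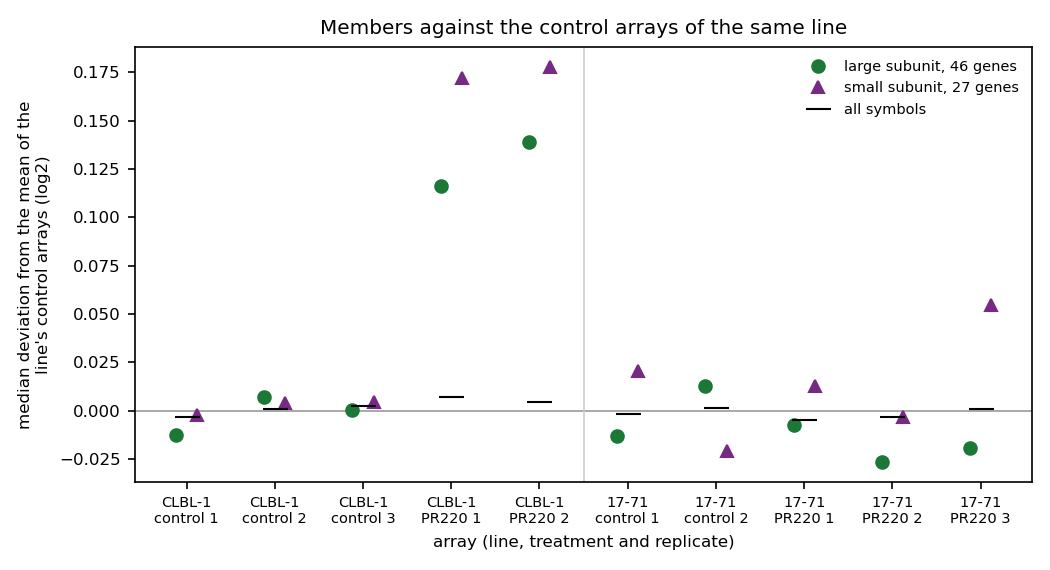
Median deviation (log2, vertical axis) of the large subunit members (circles), the small subunit members (triangles) and all 15947 symbols (dashes) from the mean of its line's control arrays, for each of the 10 arrays. Both CLBL-1 treated arrays lie between 0.116 and 0.178 in both subunits, and the 17-71 arrays lie between -0.027 and 0.055.

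Proteins with and without a bacterial homolog are given side by side, with no test between the lists. MRPL55, MRPS18A, MRPS28, MRPS30 and MRPS36 were placed in neither list. In CLBL-1 the median difference was 0.12 for 28 large subunit members with a homolog and 0.11 for 17 without, and 0.13 for 13 small subunit members with a homolog and 0.21 for 10 without. In 17-71 these medians were -0.028 and 0.031 in the large subunit and 0.043 and 0.036 in the small subunit. The difference in response was positive for 23 of the 28 large subunit members with a homolog, with a median of 0.096, and for 8 of the 17 without, with a median of -0.00060. In the small subunit it was positive for 10 of 13 and 7 of 10, with medians of 0.059 and 0.19. In CLBL-1 the 5 measured proteins of the central protuberance had a median of 0.11, the 5 of the L7/L12 stalk 0.077 and the 8 around the exit of the polypeptide tunnel 0.17. Of these last 8, 6 were positive in CLBL-1 and 3 in 17-71.

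The differences in one line were only weakly related to those in the other. Across the 73 members, which share arrays, Pearson's r between the CLBL-1 and 17-71 differences was 0.21 and Spearman's rho 0.28, beside 0.19 and 0.13 over all symbols. The sign was the same for 48 members, 32 of them positive and 16 negative. Of the 21 members higher in CLBL-1 at an unadjusted p below 0.05, 15 were positive in 17-71, and 1 of them, MRPS7, also reached that threshold there. The treated arrays lay above the controls in both lines for 7 members (MRPL12, MRPL33, MRPL47, MRPL50, MRPS7, MRPS24 and MRPS35), above in CLBL-1 and below in 17-71 for 9, and below in both for MRPL9 alone. The share of all symbols with each of these joint patterns was not counted, so the counts cannot be read as particular to the members.

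No member passed the adjusted threshold for a difference in response between the lines (0.0439% of all symbols did), and the smallest adjusted p was 0.182 (limma). At an unadjusted p below 0.05 the response was higher in CLBL-1 for 14 members and lower for 3, beside 7.31% and 5.95% of all symbols. With dim probe sets left out of the fit, MRPS18B and MRPS15 passed at adjusted p-values of 0.0426 and 0.0469, both higher in CLBL-1, beside 1.54% of symbols. MRPS15 was at 8.09, 8.10 and 8.06 in CLBL-1 control cells and at 8.32 and 8.47 in treated cells, and at 8.16 and 8.13 in 17-71 control cells and at 8.0, 8.05 and 8.0 in treated cells. Its arrays separated upward in one line and downward in the other, with a difference in response of 0.44 (SE 0.107).

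MRPL32 and MRPL48 had the lowest values in treated 17-71 cells relative to their controls. MRPL32, whose protein is matured by the AFG3L2 protease before it joins the subunit, was at 6.22 and 6.28 in control cells and at 5.88, 6.07 and 5.80 in treated cells, while in CLBL-1 it was at 6.51, 6.60 and 6.32 in control cells and at 6.75 and 6.84 in treated cells. MRPL48 was at 4.10 and 3.86 in 17-71 control cells and at 3.50, 3.74 and 3.49 in treated cells, and at 4.91, 5.30 and 5.08 against 5.36 and 5.49 in CLBL-1. In both genes the arrays separated in opposite directions in the lines. The difference in response was 0.65 for MRPL32 (SE 0.159, adjusted p = 0.207) and 0.73 for MRPL48 (SE 0.196, adjusted p = 0.244). MRPL48 is a dim probe set, and its second probe set, dimmer still, gave a difference in response of 0.10. MRPS24, a small subunit protein, was the remaining member higher in treated 17-71 cells at an unadjusted p below 0.05 beside MRPS7, at 6.98 and 7.03 against 7.37, 7.19 and 7.23 (0.26, SE 0.0988, adjusted p = 0.546).

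Genes that work with the mitochondrial ribosome were taken from lists of known function. Among 30 measured genes for assembly of the mitoribosome and modification of its RNA, 13 were higher and 1 lower in treated CLBL-1 cells at an unadjusted p below 0.05, with a median of 0.19, and 0 were higher and 4 lower in 17-71, with a median of -0.068. None passed the adjusted threshold in either line. GTPBP10, a GTPase of large subunit assembly, differed by 0.69 in CLBL-1 (SE 0.0968, adjusted p = 0.0917) and by -0.09 in 17-71, and TRMT61B, a methyltransferase of mitochondrial RNA, by 0.70 (SE 0.168, adjusted p = 0.188) and -0.44 (SE 0.0862, adjusted p = 0.467). The difference in response had an adjusted p of 0.0928 for GTPBP10 and 0.121 for TRMT61B. MPV17L2, which is needed for assembly in human cells, was the gene lower in CLBL-1 (-0.54, SE 0.118, adjusted p = 0.163). As for the members, adjusted calls depended on the model. GTPBP10, TRMT61B and MPV17L2 each passed in CLBL-1 in at least 1 alternative limma fit, and reached an adjusted p of 0.474, 0.467 and 0.486 in others. The difference in response of GTPBP10 and of TRMT61B also passed in at least 1 such fit, with an adjusted p of up to 0.556 in others.

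Of 15 measured factors of mitochondrial translation, 5 were higher and 0 lower in CLBL-1 at an unadjusted p below 0.05, and 1 was higher and 1 lower in 17-71. SLIRP, an RNA-binding protein that stabilises mitochondrial messenger RNAs together with LRPPRC, rose in the common effect by 0.31 (SE 0.0543, adjusted p = 0.0334, limma), with 0.21 in CLBL-1 and 0.41 in 17-71. It did not pass when any 1 array was left out (adjusted p = 0.0611 to 0.116), nor with replicate number as a block (adjusted p = 0.372). The release factors MTRF1L and MTRF1 had the smallest p-values in CLBL-1, at 0.34 (SE 0.0977, adjusted p = 0.246) and 0.44 (SE 0.144, adjusted p = 0.290). GUF1, an elongation factor, was the gene lower in 17-71 (-0.39, SE 0.0909, adjusted p = 0.475).

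Of 10 measured genes for mitochondrial transcription and RNA processing, 4 were higher and 0 lower in CLBL-1 at an unadjusted p below 0.05, and none in either direction in 17-71. The RNA degrading enzyme PNPT1 differed by 0.42 (SE 0.108, adjusted p = 0.206) and the poly(A) polymerase MTPAP by 0.39 (SE 0.0923, adjusted p = 0.181). Among 5 measured mitoribosomal proteins that carry other names, PTCD3 and CHCHD1 were higher in CLBL-1 at an unadjusted p below 0.05 (0.27, SE 0.0800, adjusted p = 0.261, and 0.25, SE 0.0857, adjusted p = 0.298), and none was in 17-71. Of 17 markers of mitochondrial import and mass, 3 were higher and 1 lower in CLBL-1, with a median of 0.019, and 0 were higher and 1 lower in 17-71.

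In CLBL-1 the cytosolic ribosome and the respiratory chain had smaller medians than the mitoribosome, and in 17-71 their medians were above the 0.010 of the members. Of 52 nuclear-encoded respiratory chain genes, 11 were higher and 6 lower in CLBL-1 at an unadjusted p below 0.05, with a median of 0.036, and 1 and 0 in 17-71, with a median of 0.029. Of 36 large subunit proteins of the cytosolic ribosome, 3 were higher and 0 lower in CLBL-1, and of 22 small subunit proteins 0 and 0, with medians of 0.041 and 0.029. In 17-71, 2 were higher and 0 lower in each, with medians of 0.019 and 0.030. Of the 10 nuclear regulators of mitochondrial genes, such as NRF1, GABPA and MYC, none reached an unadjusted p below 0.05 in CLBL-1, and 1 was lower in 17-71, where all 10 were negative with a median of -0.13. Over all 15947 symbols 7997 were negative in 17-71, and 5080 of the 9216 with a mean of at least 4, whose median was -0.020. COX1, the only mitochondrially encoded gene with a probe set of its own symbol here, reached no threshold in either line. The share of all symbols at the same threshold was 8.31% and 8.67% in CLBL-1 and 3.39% and 5.24% in 17-71.

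**Figure D4:**
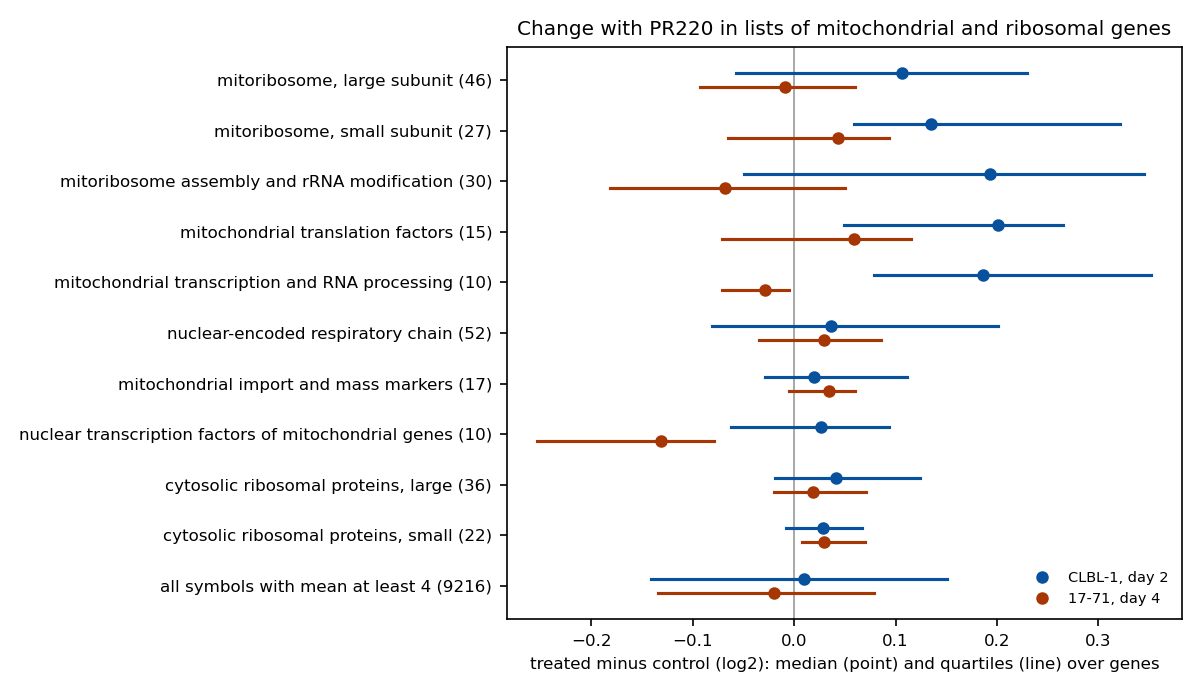
Median (points) and quartiles (lines) over genes of the difference between treated and control cells (log2, horizontal axis) in CLBL-1 (blue) and 17-71 (brown), for the members by subunit and for related lists with the number of genes measured in brackets. In CLBL-1 the medians of the mitoribosome, its assembly genes, translation factors and RNA processing genes lie between 0.11 and 0.20, and those of the respiratory chain and of the cytosolic ribosome between 0.029 and 0.041.

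The lines themselves differed far more than treated and control cells did. In control cells 20 members were higher in CLBL-1 and 17 lower at an adjusted p below 0.05 (limma), beside 21.7% and 20.2% of all symbols, and 33.3% and 30% of symbols with a mean of at least 4. Among treated cells, which are other arrays, 30 were higher and 17 lower, beside 22.9% and 19.6% of all symbols and 35.7% and 28.5% at a mean of at least 4. As a share of the members, the count higher in CLBL-1 was below that of symbols with a mean of at least 4 in control cells and above it in treated cells. The count lower was below it in both. A mean of at least 4 is a floor, and the symbols were not matched to the members in level. Of the members called higher, 19 were shared, 95% of those in control cells and 63.3% of those in treated cells. Of those called lower, 16 were shared, 94.1% of each, and no member was called in opposite directions.

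By subunit, the calls between the lines were counted with no test between the subunits. In control cells, 12 large subunit members were higher in CLBL-1 and 14 lower (26.1% and 30.4%), and 8 small subunit members were higher and 3 lower (29.6% and 11.1%), against the 33.3% and 30% of symbols with a mean of at least 4. In treated cells the counts were 15 and 15 for the large subunit (32.6% each) and 15 and 2 for the small subunit (55.6% and 7.41%), against 35.7% and 28.5%. The small subunit counts follow the names and include MRPS18A and MRPS30, whose proteins lie in the large subunit, and MRPS36, described below. The counts were not repeated without these genes. Over all members of a subunit the median difference in control cells was -0.0031 (large) and 0.15 (small), and in treated cells 0.11 and 0.41. In control cells 8 members were lower in CLBL-1 by more than 1 log2 unit, 7 of them in the large subunit, and 4 were higher by that much.

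MRPS35, a small subunit protein, was the member furthest below its 17-71 level in CLBL-1. It was at 6.92, 6.84 and 6.74 in CLBL-1 control cells and at 8.57 and 8.60 in 17-71 control cells, a difference of -1.75 (SE 0.0817, adjusted p = 6.2e-07, limma), which is a 3.37-fold lower level in CLBL-1. In treated cells the difference was -1.63. MRPL45, which anchors the exit of the tunnel to the inner membrane, was at 5.64, 5.89 and 5.82 against 7.31 and 7.33, a difference of -1.54 (SE 0.145, adjusted p = 4.7e-05). No array of one line overlapped the other in either gene.

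The remaining large subunit members lower in CLBL-1 control cells by more than 1 log2 unit were MRPL55 (-1.25), MRPL21 (-1.25), MRPL17 (-1.21), MRPL9 (-1.15), MRPL51 (-1.14) and MRPL36 (-1.03), with adjusted p-values from 2.2e-06 for MRPL21 to 2.9e-05 for MRPL55. MRPL21 was measured by a second probe set, which gave -1.06. MRPL17 and MRPL45 belong to the list of 8 proteins around the tunnel exit. Of these, 4 were called lower in CLBL-1 control cells and 1 higher, and 4 and 2 in treated cells. Over all symbols 20.2% were lower and 21.7% higher in control cells, and 19.6% and 22.9% in treated cells. Among symbols with a mean of at least 4 these shares were 30% and 33.3%, and 28.5% and 35.7%. MRPL36, the counterpart of the small bacterial protein L36, was at 10.10, 10.09 and 10.18 in CLBL-1 control cells and at 11.14 and 11.17 in 17-71. The neighbours of these genes in the RefSeq gene order differed in various directions. Beside MRPL36, NDUFS6, a subunit of respiratory complex I, differed by -1.08 (SE 0.0758, adjusted p = 7.2e-06) and LPCAT1 by -0.91 (SE 0.0921, adjusted p = 7.0e-05). CPT1A, beside MRPL21, differed by -1.17 (SE 0.123, adjusted p = 9.3e-05). Beside MRPL9, RIIAD1 differed by -2.74 and OAZ3 by 0.75 (SE 0.134, adjusted p = 0.00224). Beside MRPL45, NPEPPS differed by -0.51 and GPR179 by -0.05, and beside MRPL17, DCHS1 differed by 0.13 and OR2D37 by -0.05, of which only NPEPPS passed the adjusted threshold.

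MRPS18C and MRPS28 led the members that were higher in CLBL-1. In control cells MRPS18C was at 7.07, 7.13 and 7.08 in CLBL-1 and at 5.66 and 5.59 in 17-71, a difference of 1.47 (SE 0.0772, adjusted p = 1.2e-06), and it was 1.06 in treated cells. ABRAXAS1, which overlaps it, differed by 1.78 (SE 0.161, adjusted p = 3.6e-05). MRPS28 was at 7.06, 7.05 and 7.09 against 5.75 and 5.85, a difference of 1.27 (SE 0.0940, adjusted p = 1.0e-05) that was 1.59 in treated cells. Its neighbours went opposite ways: TPD52 differed by 1.90 (SE 0.112) and HEY1 by -3.35 (SE 0.101).

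MRPL48 (1.12) and MRPS33 (1.06) were the other members higher in CLBL-1 control cells by more than 1 log2 unit, both with low levels in 17-71. For MRPL48 the difference was 1.85 in treated cells, and its second probe set gave 0.45 and 0.56. MRPS23 (0.83), MRPL4 (0.80), MRPS36 (0.64) and MRPL58 (0.58) followed. MRPS36, now assigned to the 2-oxoglutarate dehydrogenase complex rather than to the ribosome, was at 9.86, 9.83 and 9.82 against 9.12 and 9.29, and its treated minus control differences were 0.13 in CLBL-1 and 0.07 in 17-71. MRPS30, which lies in the large subunit despite its name, had a difference between control cells of 0.01 (SE 0.0732, 95% interval -0.16 to 0.18).

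DAP3, a GTP-binding small subunit protein that carries no MRPS name in the files, was higher in CLBL-1 control cells by 1.39 (SE 0.112, adjusted p = 1.7e-05). Of the 30 assembly genes 10 were higher and 9 lower in CLBL-1 control cells at the adjusted threshold. The shares were 21.7% and 20.2% of all symbols, and 33.3% and 30% of symbols with a mean of at least 4, so the counts cannot be read as particular to these genes. MALSU1, which keeps the large subunit from joining the small subunit too early, was lower by 1.73 (difference -1.73, SE 0.0908, adjusted p = 1.2e-06), and GTPBP10 by 1.59 (difference -1.59, SE 0.0868, adjusted p = 1.6e-06). Line, day and the marker differences given above cannot be told apart in any of these values.

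**Figure D5:**
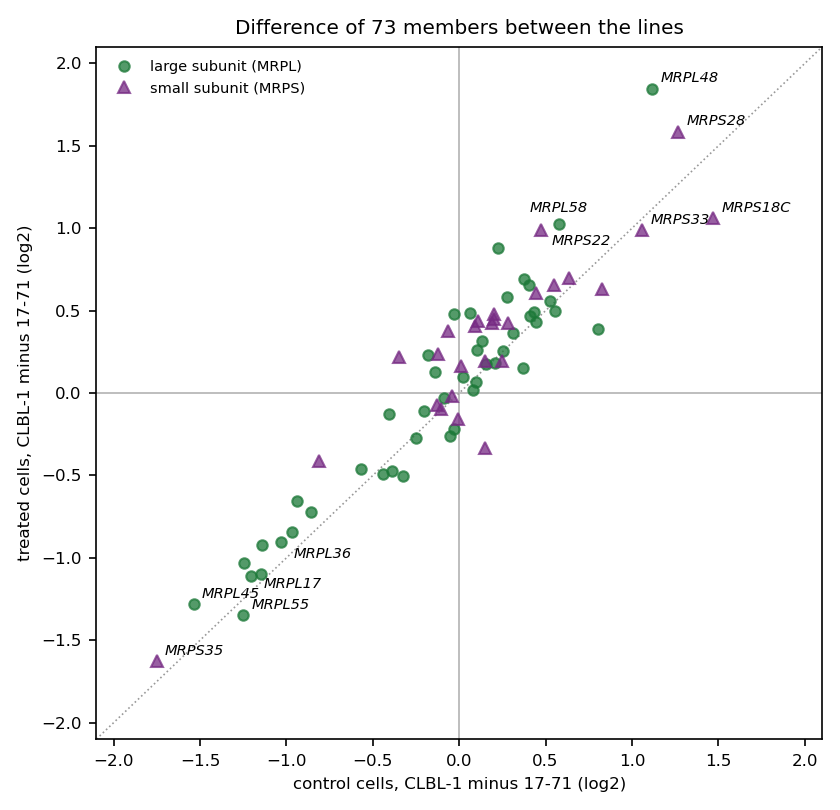
Difference between CLBL-1 and 17-71 (log2) of each of the 73 members in control cells (horizontal axis) and in treated cells (vertical axis), with large subunit genes as green circles, small subunit genes as purple triangles and equality as a dotted line. MRPS35 lies lowest at -1.75 in control cells and -1.63 in treated cells, and MRPL48 highest in treated cells at 1.85.

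Within groups the members spread somewhat less than symbols with a mean of at least 4. Those symbols were not matched to the members in level. The pooled SD of arrays within a group had a median of 0.082 over the members, beside 0.102 over symbols with a mean of at least 4, and 1 member, MRPS16, had a mean below 4 (2.94) and reached no threshold in the comparisons above. Arrays have no read depth, and the 2 to 3 arrays per group limit the precision. Of the 4 genes with a second probe set, MRPL47 had a second set near background (mean 1.36), and no probe set of a member repeated the values of another.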

How the data were processed

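RNA of 10 samples was hybridised to Affymetrix canine gene arrays. The deposited values are log2 expression values that the authors summarised by RMA; the submitters' processing notes name RMA, limma and Affymetrix Expression Console, without versions. RMA gives every array nearly the same distribution (array medians 3.71 to 3.79). Of the probe sets, 16545 carried 1 gene symbol, 370 several and 15476 none. The members had 77 probe sets, with 2 for each of 4 genes.

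Tests used limma 3.58.1 (lmFit and eBayes) in R 4.3.3, two-sided, with Benjamini-Hochberg adjustment over all 32391 probe sets and a threshold of 0.05. Treated and control cells were compared within each line, with 3 residual degrees of freedom. A fit of all 4 groups, with 6, gave the common effect, the difference in response and the differences between lines. The scripts were tested on simulated data.

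The text names, per comparison, members past the adjusted threshold (at most 8 per direction, by size) or otherwise up to 6 per direction with the smallest p, the MRPS18 paralogs, MRPS30, MRPS36, MRPL12 and MRPL58, and up to 4 genes of each related list. Neighbouring genes, MRPL10 and genes named for their pattern over arrays or lines were chosen after their values were seen. The members and lists were chosen with earlier results of these data known. Members are not replicates of a condition, and levels of different probe sets were not compared. Alternatives were variance trend, normalisation, a filter at a mean of 4, probe set choice, replicate block, arrays in the fit and leaving out each array.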

Additional observations from a re-analysis of the deposited data

How the results depend on the processing

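For the named genes, 2114 of the alternative values kept direction and side of the threshold, 32 lost the call, 62 gained one and 1 changed sign: DAP3 in 17-71 (0.06) was -0.042 without treated replicate 1, and -0.042 to 0.158 over the arrays left out. The median change of the members in CLBL-1 (0.13) was 0.099 after cyclic loess and 0.12 to 0.15 with 1 array left out. In 17-71 (0.010) it was 0.028 after quantile normalisation, -0.0084 with the replicate block and -0.010 to 0.017 with 1 array left out. With variance trend and robust variances, 13 members passed the adjusted threshold in CLBL-1, 10 in the common effect and 2 in the difference in response, and 4 were higher and 4 lower at an unadjusted p below 0.05 in 17-71. With dim probe sets left out, 10, 11 and 2 passed, 4 were higher in 17-71 and 8 lower in the common effect at an unadjusted p below 0.05. With all 10 arrays in the fit, 6 passed in CLBL-1. With the mean of all probe sets of a gene, 1 member was lower in 17-71. Shares of all symbols were not counted under the alternatives here and below, except the adjusted calls without dim probe sets, given above.

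With replicate number as a block, the counts at an unadjusted p below 0.05 were 10 higher and 3 lower in CLBL-1, 0 and 0 in 17-71, 9 and 2 in the common effect and 6 higher in the difference in response; 0 members passed the adjusted threshold in the common effect, and 12 were higher in CLBL-1 control cells. The labels do not say that a number marks a shared culture or day, and the deviations of same-numbered arrays correlated at -0.047 and -0.015 in CLBL-1 and 0.025 and 0.013 in 17-71, so the numbers were not taken as pairs.

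With 1 array left out, the unadjusted counts were 10 to 18 higher and 2 to 3 lower in CLBL-1, 0 to 1 and 0 to 2 in 17-71, 12 to 19 and 2 to 5 in the common effect, and 8 to 14 higher in the difference in response. The adjusted count was 0 in CLBL-1 and 0 to 1 in the common effect. In CLBL-1 the lowest count higher, 10, came without either treated array. The small minus large subunit median in CLBL-1 (0.029) was 0.082 with MRPS18A and MRPS30 in the large subunit, 0.061 by the mean, 0.056 without dim members or without MRPS36, and 0.039 to 0.056 with 1 array left out. In 17-71 (0.052) it was -0.0022 to 0.085, and it turned without control replicate 2 (-0.0022). The cause of these shifts was not tested. The number of arrays, not read depth, limits the precision.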
